A study of Saccharomyces cerevisiae with 109 samples.

Results

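Mating-type specific genes are the genes that haploid budding yeast transcribe in only 1 of their mating types, and 10 of them were followed here in a MATa strain, out of 5876 nuclear protein-coding genes in the files. They were taken by name: 7 a-cell genes (MFA1, MFA2, STE2, STE6, BAR1, AGA2 and ASG7) and 3 alpha-cell genes (MF(ALPHA)1, MF(ALPHA)2 and STE3). The list is one of cell-type genes and has no threshold, but it was chosen by their levels in these libraries, by temperature and labelling time, and not blind to them. The height of the a-cell genes against the alpha-cell genes is therefore given as a description, and the tests between temperatures, times and glutathione come from fits to all genes and are not independent evidence.

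The cells were wild-type haploid Saccharomyces cerevisiae of the W303 background (MATa; his3-11_15; leu2-3_112; ura3-1; trp1Δ2; ade2-1; can1-100), and every group shared this genotype. Cultures were kept at 1 °C, 5 °C or 30 °C with no added glutathione (low [GSH]), and at 1 °C and 5 °C also with 250 µM of it (high [GSH]). The uracil analog 4tU, which cells build into new RNA, was then given, and labelled RNA was sequenced at 0, 6, 12, 24, 48 and 96 h at 1 °C, at 0, 1.5, 3, 6, 12, 24, 48 and 96 h at 5 °C, and at 0, 5, 10 and 20 min at 30 °C. RNA without selection for the label (steady state) was sequenced for each of the 5 conditions, with 3 replicates in each group, or 2 for the 3 h and 12 h points of the glutathione-treated 5 °C cultures. That made 109 libraries: 15 of steady-state RNA, 79 of labelled RNA after time 0 and 15 of time 0.

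Haploid yeast mate by exchanging peptide pheromones. a cells secrete a-factor and carry the receptor for alpha-factor, and alpha cells do the reverse. The MAT locus sets the type: in alpha cells the regulator α1 switches alpha-cell genes on and α2, with Mcm1, shuts a-cell genes off, while in a cells neither protein is made, so a-cell genes are on by default. Silent copies of both cassettes lie at HML and HMR, held shut by the Sir proteins. The reference genome carries the alpha cassette at MAT, so a transcript of MATa is counted under the silent copy HMRA1.

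The a-cell genes share a short control sequence. In the 500 bases before the start codon, a match to the α2-Mcm1 operator (TGTA, 4 bases of any kind, CC, 6 bases, GG, 4 bases, TTACA, with up to 2 mismatches, both strands) was found for 5 of the 7 a-cell genes and 0 of the 3 alpha-cell genes, against 0.834% of 5874 windows of all genes. These 5 windows are shown because they carry the sequence by which a-cell genes are recognised. They are read from the R64 genome on the coding strand of each gene, and capitals mark the letters that match the operator.
MFA1 (chrIV:1384938-1384976): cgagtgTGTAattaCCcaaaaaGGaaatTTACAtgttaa
MFA2 (chrXIV:352159-352197): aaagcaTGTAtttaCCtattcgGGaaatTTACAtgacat
STE2 (chrVI:82347-82385, matched on the other strand): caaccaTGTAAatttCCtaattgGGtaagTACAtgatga
STE6 (chrXI:46473-46511): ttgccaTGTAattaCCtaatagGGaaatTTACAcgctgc
ASG7 (chrX:101901-101939): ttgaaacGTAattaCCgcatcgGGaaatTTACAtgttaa
The match in ASG7 had 1 mismatch and the other 4 had 0. BAR1 and AGA2 had no match to these letters in the window, which says nothing of the factors there.

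The alpha-cell genes held another element. The Q box, the sequence α1 uses with Mcm1 (searched as TCAATG, any base, then CAG, up to 1 mismatch, both strands), was matched in all 3 alpha-cell genes and in 1 of 7 a-cell genes, against 11.2% of all windows. A match of MF(ALPHA)1 and one of STE3 are shown, and capitals again mark matching letters.
MF(ALPHA)1 (chrXVI:193346-193367): aggccaTCAAcGaCAGtaaatt
STE3 (chrXI:114953-114974, matched on the other strand): ttttctCTGtCATTGtgacact
The pheromone response element, bound by Ste12 and searched as TGAAACA without mismatch on both strands, was matched in 7 of 7 a-cell genes and 1 of 3 alpha-cell genes, against 11.7% of all windows. In the 5 genes with an operator it did not overlap that match.

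Length limited what could be measured for the genes of a-factor. The coding sequences of MFA1 (111 bases, chrIV:1385176-1385286) and MFA2 (117 bases, chrXIV:352414-352530) are printed with T in capitals, since 4tU enters RNA at these positions.
MFA1: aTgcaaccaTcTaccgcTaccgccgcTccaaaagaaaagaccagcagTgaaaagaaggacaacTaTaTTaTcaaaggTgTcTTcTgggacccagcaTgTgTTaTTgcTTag
MFA2: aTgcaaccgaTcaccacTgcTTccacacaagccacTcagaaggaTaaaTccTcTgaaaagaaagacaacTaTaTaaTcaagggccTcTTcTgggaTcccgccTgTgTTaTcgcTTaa
MFA1 holds 24 T and MFA2 26, where the median gene holds 323. The effective length that Salmon, the tool that assigned the reads, used was 4.34 to 4.89 bases for MFA1 and 6.5 to 7.54 for MFA2, so their TPM (a length-scaled share of reads) multiplies a few reads many times. Levels are therefore given as reads per 1000000 mRNA reads (RPM), which compare 1 gene between libraries but not 2 genes with each other. No member shared a run of 31 bases with another of the 5876 coding sequences on the coding strand. The other transcripts to which reads were assigned, those of S. pombe included, were not compared.

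Depth differed between kinds of library. Reads on the 5876 genes numbered 7791032 to 32634257 in steady-state libraries, 18937 to 47877835 in labelled libraries and 8368 to 2032862 at time 0. The library with 18937 reads was replicate 1 at 5 min and 30 °C, and a count of 0 there allows a level of up to 158 RPM (3 reads), against 0.121 at 20 min in the same replicate. These limits, for counting error only, leave the 5 and 10 min libraries at 30 °C as a coarse description. Neither the labels nor the methods name a batch, so temperature and a difference in processing between temperatures cannot be told apart. In such bulk RNA, fewer cells of a type and less RNA per cell also cannot be told apart.

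Markers of both cell types were detected in steady-state RNA at every temperature, though not every marker in every library. The 7 a-cell genes summed to 498 to 605 RPM in the 6 steady-state libraries at 1 °C, 432 to 566 in the 6 at 5 °C and 792 to 861 in the 3 at 30 °C. The alpha-cell sum took 6 markers: the 3 members, SAG1 (the alpha-agglutinin), AFB1 (an alpha-cell a-factor barrier protein) and MATALPHA1 (the gene of α1). It was 75.1 to 165, 52.1 to 69.4 and 20.7 to 27.6 RPM at the same temperatures. The 165 came from replicate 2 at 1 °C with low [GSH], and the other libraries at 1 °C had at most 90.5. At 30 °C SAG1 alone had 17.3 to 20.6 RPM. These sums run over genes of different length, so each compares libraries and not a-cell with alpha-cell genes. Per length, by mean TPM with low [GSH], the receptor STE2 stood at percentile 79.4 of all genes at 1 °C, 81.9 at 5 °C and 87.8 at 30 °C, and the alpha-cell receptor STE3 at 6.43, 10.1 and 5.38. In labelled RNA the a-cell sum was 347 to 637 RPM at 1 °C (30 libraries) and 385 to 836 at 5 °C (40 libraries). The alpha-cell sums beside them were 160 to 284 and 56.7 to 103. At 30 °C (9 libraries, some of them shallow) the a-cell sum was 924 to 2320 RPM and the alpha-cell sum 0 to 123. MATALPHA1, which alpha cells need to express their genes, was listed at 0 in 82 of 109 libraries. All libraries of time 0, with as few as 8368 reads, are among these. Its highest value was 53 reads, or 1.59 RPM, in replicate 3 at 6 h and 1 °C with low [GSH]. The coding sequence is identical to that of the silent copy HMLALPHA1, which was not counted apart, so its reads are not specific to alpha cells. MATALPHA2 had 32.5 to 38.7 RPM in steady-state RNA of 30 °C. Its cold steady-state libraries had 79.4 to 97.5 RPM (1 °C) and 28.3 to 40.4 RPM (5 °C). HMRA2, which the MATa cassette shares, had 0 to 4.92, 4.85 to 16.6 and 0 to 8.38 RPM in that order. Of the 31-base runs of MATALPHA2, 54.7% also occur in HMRA2. Its coding sequence is also identical to that of the silent copy HMLALPHA2, not counted apart. Reads of MATALPHA2 are therefore not specific to alpha cells either, and their source was not tested.

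**Figure D1:**
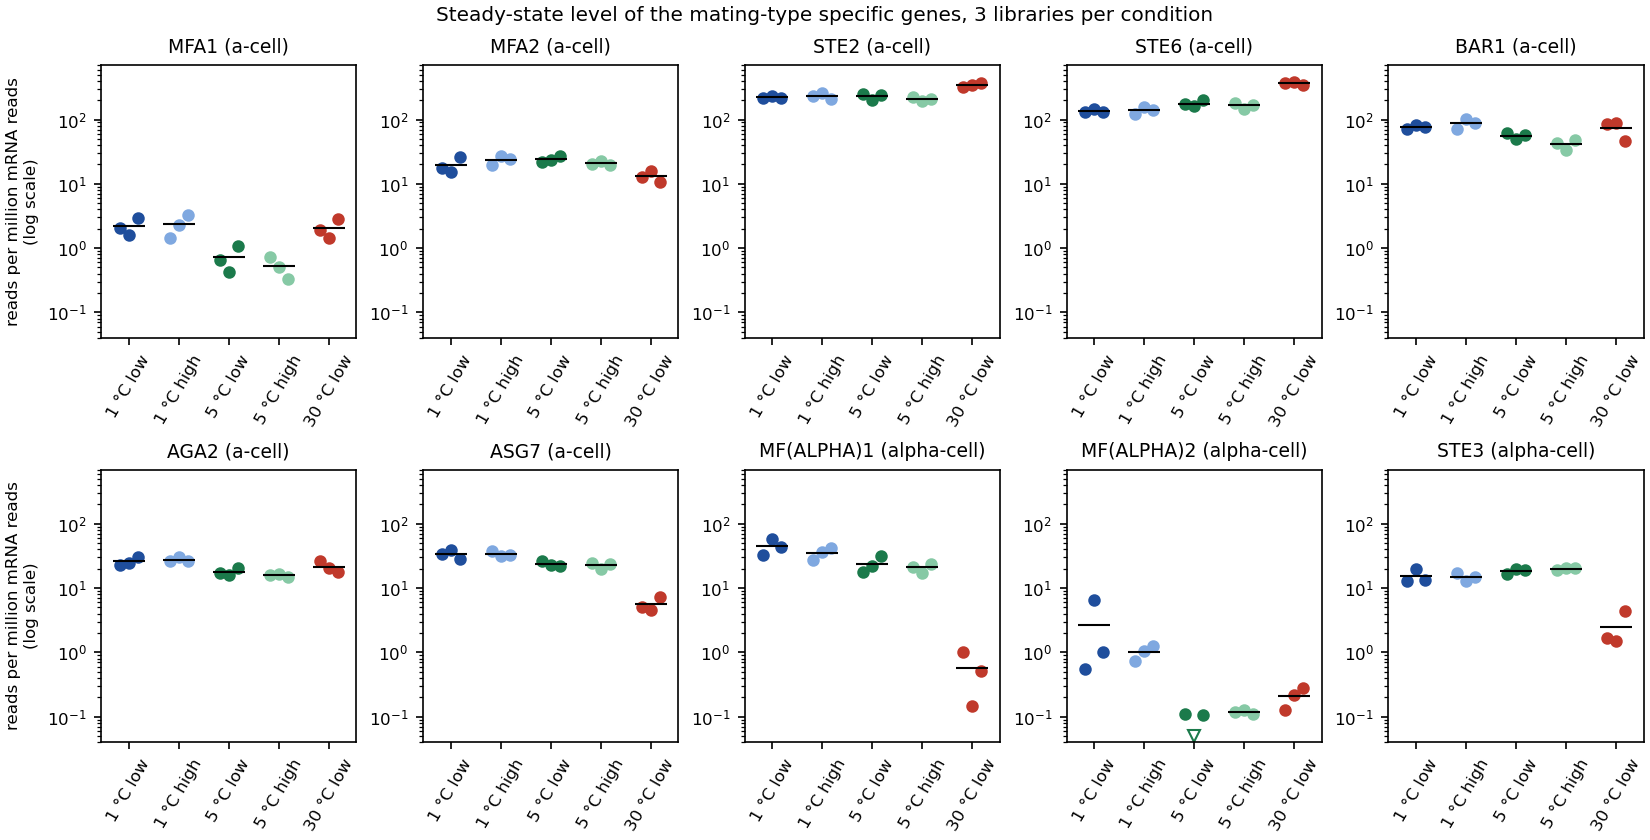
Steady-state level of each gene in RPM (log axis) for the 5 conditions. Points are single libraries, bars the mean of 3, and the open triangle a library at 0. The 3 red points of 30 °C lie apart from all cold points for MF(ALPHA)1, STE3 and ASG7 (lower) and for STE2 and STE6 (higher).

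The alpha-factor gene MF(ALPHA)1 was the member that differed most between cold and warm cultures. It encodes the precursor of alpha-factor, and its coding sequence (chrXVI:193648-194145) carries the 18-base stretch gctgaagcttggcattgg in 4 copies, at the start of its pheromone repeats. At 30 °C its steady-state level was 1.02, 0.145 and 0.521 RPM, from 16, 2 and 17 reads. At 1 °C with low [GSH] it was 32.6, 58.6 and 44.1 RPM, and at 5 °C with low [GSH] it was 18.02, 21.75 and 31.85. With high [GSH] the 1 °C libraries had 27.4, 36.8 and 42.5, and those of 5 °C had 21.7, 17.3 and 23.9. The cold and warm libraries did not overlap. The share of all genes without overlap is not given, for this or any member, so lack of overlap does not set members apart from other genes. MF(ALPHA)1 rose by 5.70 on the log2 scale at 1 °C against 30 °C (SE 0.41, edgeR adjusted p = 1.28e-08) and by 5.08 at 5 °C against 30 °C (SE 0.41, adjusted p = 4.34e-08). Its mean TPM among all genes stood at percentile 70.5 at 1 °C, 56.2 at 5 °C and 5.12 at 30 °C with low [GSH]. Both comparisons share the 30 °C libraries. Log2 changes are given after TMM scaling (a trimmed mean of genes), which puts the median gene 0.61 lower at 1 °C and 0.32 lower at 5 °C, against 30 °C, than summed reads as in RPM would, so a change can be smaller or of other sign than its RPM values.

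STE3, the receptor by which alpha cells sense a-factor, also rose in the cold. Its level was 1.65, 1.52 and 4.35 RPM at 30 °C, 13.1, 19.6 and 13.2 at 1 °C and 16.7, 20.1 and 19.1 at 5 °C with low [GSH], so cold and warm libraries did not overlap. The change was 1.92 (SE 0.29, adjusted p = 3.66e-05) at 1 °C and 2.51 (SE 0.30, adjusted p = 3.03e-06) at 5 °C.

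MF(ALPHA)2, the minor alpha-factor gene, had few reads in steady-state RNA. It had 2, 3 and 9 reads at 30 °C, 1, 0 and 1 at 5 °C and 16, 151 and 24 at 1 °C with low [GSH]. It rose by 2.97 at 1 °C against 30 °C (SE 0.83, adjusted p = 0.00496), and without replicate 2 of every group, which removes the library with 151 reads, the change was 1.21 (adjusted p = 0.119). At 5 °C its change of -1.79 did not pass the test (SE 1.40, adjusted p = 0.26). In that same library of replicate 2 SAG1 had 1423 reads, against 544 and 540 in replicates 1 and 3.

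Other alpha-cell markers gave values that depended on the scale. AFB1 rose by 1.87 at 1 °C against 30 °C (SE 0.30, adjusted p = 4.89e-05), and its value at 5 °C was 0.55 (adjusted p = 0.123), but 0.86 (adjusted p = 0.0212) with summed mRNA reads and 1.47 (adjusted p = 0.00209) with reads of the S. pombe spike-in as library size. SAG1 had a change of 0.20 at 1 °C (adjusted p = 0.568), but 0.82 (adjusted p = 0.0277) and 2.33 (adjusted p = 8.82e-11) on those scales, and fell by 0.93 at 5 °C (SE 0.33, adjusted p = 0.0194), where they gave -0.61 (adjusted p = 0.112) and 0.02 (adjusted p = 0.955). MATALPHA1 was too low to enter the steady-state fit, with 0 to 4 reads in each of the 15 libraries. The part of other cells or of the silent cassettes in the alpha-cell signal was not tested.

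Among the a-cell genes, ASG7 moved the other way from most. ASG7, which in zygotes helps to switch off pheromone signalling, had 5.02, 4.63 and 7.26 RPM at 30 °C, 34.2, 39.1 and 28.4 at 1 °C and 26.5, 22.9 and 22.3 at 5 °C with low [GSH]. It rose by 1.95 (SE 0.17, adjusted p = 8.05e-08) and 1.75 (SE 0.17, adjusted p = 2.83e-07). Cold and warm libraries did not overlap.

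STE6 and STE2 fell relative to other mRNA. STE6, the transporter that exports a-factor, had 366, 386 and 341 RPM at 30 °C, 172, 160 and 199 at 5 °C and 132, 144 and 133 at 1 °C with low [GSH]. Each group lay wholly below the warmer one. STE6 fell by 2.03 at 1 °C against 30 °C (SE 0.12, adjusted p = 1.51e-09) and by 1.36 at 5 °C (SE 0.12, adjusted p = 7.38e-08). STE2, the alpha-factor receptor, had 323, 344 and 365 RPM at 30 °C, 250, 205 and 239 at 5 °C and 218, 236 and 217 at 1 °C. It fell by 1.23 (SE 0.09, adjusted p = 2.89e-08) and by 0.89 (SE 0.09, adjusted p = 8.11e-07), and both signs turned on the spike-in scale described further on. Over the 15 steady-state libraries, STE6 had the second highest Pearson correlation with STE2 among 5713 genes (r = 0.859), after SXM1 (0.867) and before SRP1 (0.859), NDJ1 (0.856) and PHO85 (0.854). This is a description over libraries that fall into 5 conditions. For MF(ALPHA)1 the same value was -0.742.

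BAR1 and AGA2 had smaller changes, which depended on single libraries. BAR1, the protease that degrades alpha-factor, fell by 0.53 at 1 °C (adjusted p = 0.0343) and by 0.70 at 5 °C (adjusted p = 0.00893), and its cold and warm libraries overlapped at both temperatures, from 47.0 to 88.0 RPM at 30 °C and from 49.0 to 82.6 in the cold with low [GSH]. Without replicate 1 these changes were -0.34 (adjusted p = 0.298) and -0.65 (adjusted p = 0.0635), and without replicate 2 they were -0.41 (adjusted p = 0.191) and -0.46 (adjusted p = 0.153). AGA2, the adhesion subunit of a-agglutinin, had 26.1, 20.8 and 17.9 RPM at 30 °C, 23.2, 24.5 and 30.4 at 1 °C and 17.4, 16.2 and 20.2 at 5 °C with low [GSH], so the 30 °C libraries overlapped both cold groups. It fell by 0.59 at 5 °C (adjusted p = 0.00586) and had a change of -0.34 at 1 °C (adjusted p = 0.0743). Without replicate 1 or 2 the AGA2 change at 5 °C was -0.39 (adjusted p = 0.108) or -0.55 (adjusted p = 0.067), and at 1 °C without replicate 3 it was -0.63 (adjusted p = 0.00693).

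The 2 a-factor genes, MFA1 and MFA2, encode the same kind of precursor and gave different values. MFA2 had 12.8, 15.8 and 10.7 RPM at 30 °C, 17.4, 15.4 and 26.2 at 1 °C and 21.8, 23.9 and 27.5 at 5 °C with low [GSH], so the 5 °C libraries lay above the 30 °C ones and the 1 °C libraries overlapped them. MFA2 rose by 0.59 at 5 °C against 30 °C (SE 0.22, adjusted p = 0.024) with a value of -0.01 at 1 °C (adjusted p = 0.982). The MFA2 call at 5 °C was lost without replicate 1 (adjusted p = 0.0747) or replicate 3 (adjusted p = 0.152). MFA1 fell by 1.83 at 5 °C (SE 0.50, adjusted p = 0.00424) and had a change of -0.51 at 1 °C (adjusted p = 0.288), on few reads: 30, 20 and 91 at 30 °C, 58, 37 and 71 at 1 °C, and 6, 4 and 10 at 5 °C with low [GSH].

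Over the members, 7 of the 10 passed the test at 1 °C against 30 °C, 4 higher and 3 lower, where 73.4% of 5697 genes did (36.9% higher, 36.4% lower). At 5 °C against 30 °C 9 of 10 passed, 4 higher and 5 lower, where 74.5% of genes did (36.5% higher, 37.9% lower). The counts at 1 °C are thus close to those of all genes. By list, the median change of the 7 a-cell genes was -0.51 at 1 °C and -0.70 at 5 °C. That of the 3 alpha-cell genes was 2.97 and 2.51, beside medians of 0.03 and -0.03 over all genes. The 2.97 is the value of MF(ALPHA)2, which was not called without replicate 2. For the 2 other alpha-cell genes in the fit, SAG1 and AFB1, the medians were 1.03 and -0.19. Of these 2, 1 was higher and 0 lower at 1 °C, and 0 higher and 1 lower at 5 °C.

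The direction of several a-cell genes depended on the scale. With reads of the Schizosaccharomyces pombe spike-in as library size, the median of all genes moved up by 2.26 at 1 °C and by 0.94 at 5 °C against 30 °C. On that scale STE2 was 1.02 higher at 1 °C (adjusted p = 0.000783), BAR1 1.75 and AGA2 1.94 higher, and STE6 had a value of 0.23 (adjusted p = 0.449), while all of them stayed below the shift of the median. At 5 °C STE2 had 0.05, BAR1 0.26 and AGA2 0.39 on that scale, all not called. With summed mRNA reads as library size the median moved up by 0.61 and 0.32, MFA2 was 0.60 higher at 1 °C (adjusted p = 0.0136) and BAR1 had 0.09 (adjusted p = 0.701). MF(ALPHA)1, STE3 and ASG7 were higher in the cold on each of these scales.

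**Figure D2:**
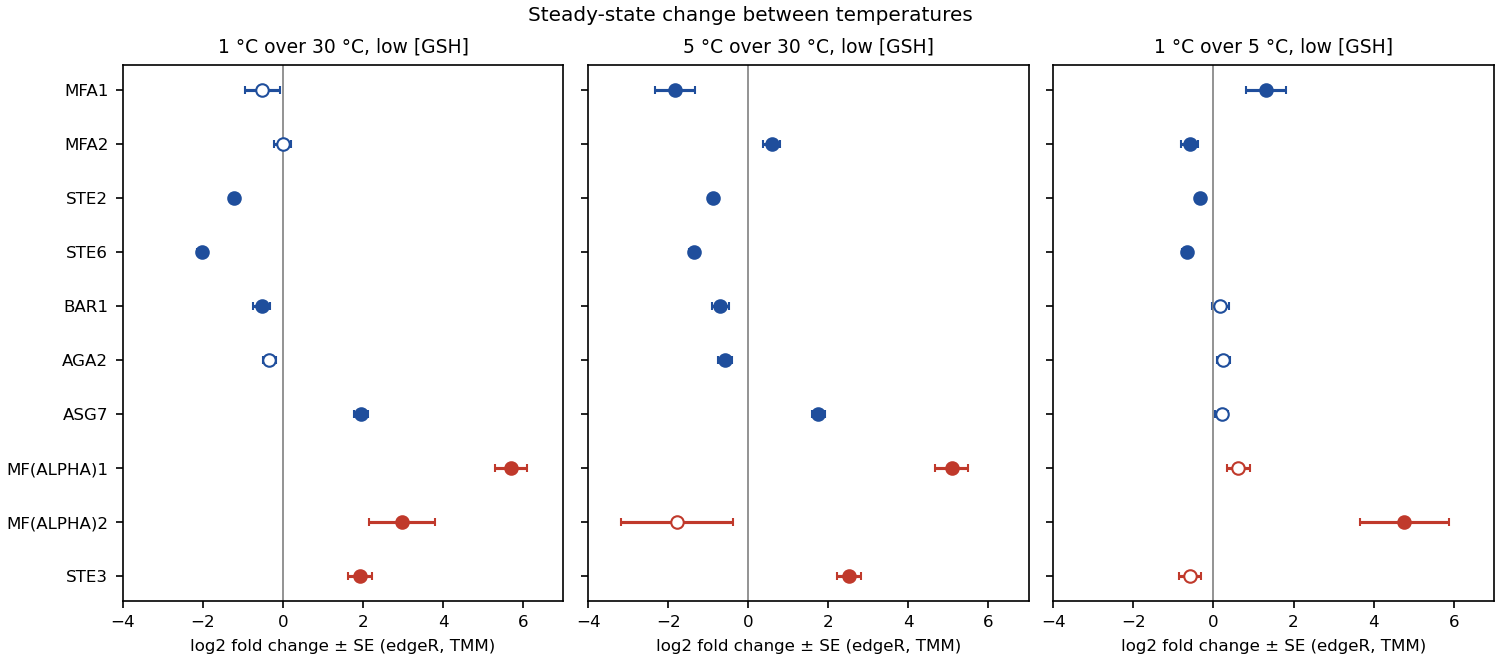
Log2 fold change (edgeR, TMM) with its SE for the 10 genes in 3 steady-state comparisons with low [GSH]; blue marks a-cell genes, red alpha-cell genes, and filled points passed an adjusted p of 0.05. MF(ALPHA)1 lies at 5.70 and 5.08 against 30 °C and at 0.62, not called, between 1 °C and 5 °C. STE2, STE6, BAR1 and AGA2 lie below 0 against 30 °C on this scale and, with STE6 at 5 °C excepted, above 0 with the spike-in as library size.

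Between 1 °C and 5 °C the steady-state differences were smaller. With low [GSH] 5 of 10 members passed the test, beside 58.7% of all genes. MFA1 was higher at 1 °C by 1.31 (adjusted p = 0.0348) and MF(ALPHA)2 by 4.77 (SE 1.12, adjusted p = 0.00225), and STE2 (-0.35), MFA2 (-0.59) and STE6 (-0.67, adjusted p = 0.000179) were lower. With high [GSH] 6 of 10 passed, beside 58.8% of all genes: MFA1 (1.91), BAR1 (0.78), AGA2 (0.52) and MF(ALPHA)2 (2.73) were higher at 1 °C, and STE6 (-0.53, adjusted p = 0.00111) and STE3 (-0.71, adjusted p = 0.0381) were lower. STE6 was thus lower at 1 °C with both levels of glutathione. With low [GSH] 2 of the 5 calls were made without replicate 1 and 2 without replicate 2, beside 46.1% and 42.7% of all genes. MF(ALPHA)2 was at 2.49 (adjusted p = 0.0606) without replicate 2. With high [GSH] 3 of the 6 were made without replicate 1 and 3 without replicate 2, beside 45.7% and 45.9% of all genes. STE6 was at -0.34 (adjusted p = 0.0563) without replicate 1. On the spike-in scale, where the median moved up by 1.32 and 1.29, STE6 was 0.63 and 0.72 higher at 1 °C, and STE2 0.97 and 1.16 higher.

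No member passed the test for added glutathione in steady-state RNA. Of 5697 genes 0 were called by edgeR at 1 °C (0.0%) and 0 at 5 °C (0.0%), where 298 and 43 had an unadjusted p under 0.05, and DESeq2 also called 0 in both. The 10 members had log2 differences of high against low [GSH] between -1.37 (MF(ALPHA)2, SE 0.70) and 0.27 (MFA2, SE 0.21) at 1 °C and between -0.48 (MFA1, SE 0.61) and 0.67 (MF(ALPHA)2, SE 1.77) at 5 °C. None had an unadjusted p under 0.05. For STE2, with many reads, the differences were 0.08 (SE 0.09) and -0.14 (SE 0.09). In labelled RNA summed over 5 times per culture, 0 of 5807 genes were called at 1 °C (0.0%) and 0 at 5 °C (0.0%), with 88 and 265 at an unadjusted p under 0.05 and 4 and 0 by DESeq2. The members then differed by -0.10 to 0.21 at 1 °C and by -0.20 to 0.42 at 5 °C. A p that misses the threshold does not show that the levels were alike. The change from the early to the late time was also compared between low and high [GSH], and no member passed that test (smallest adjusted p = 0.938 at 1 °C and 1 at 5 °C).

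Alpha-factor mRNA was also found among the labelled transcripts. MF(ALPHA)1 had 60.3 to 135 RPM (median 98.9) in the 30 labelled libraries at 1 °C and 18.2 to 47.3 (median 30.1) in the 40 at 5 °C. At 30 °C it had 1 read in 1 of 9 labelled libraries and 0 in the other 8, where the 20 min libraries allow at most 0.121 to 0.209 RPM. MF(ALPHA)2 differed from it there, with 171, 84 and 161 reads (6.89, 3.62 and 11.2 RPM) at 20 min, 142, 0 and 77 at 10 min and 0, 39 and 0 at 5 min. In the 20 min libraries it thus lay in the range of the labelled libraries at 1 °C (1.21 to 13.6 RPM), with 2, 3 and 9 reads in steady-state RNA of 30 °C, and no test was made of this. At 6 h of labelling, the shortest time both cold temperatures share, MF(ALPHA)1 had 89.2, 125 and 68.5 RPM at 1 °C and 20.0, 32.6 and 26.0 at 5 °C with low [GSH], without overlap. MF(ALPHA)1 was 1.62 higher at 1 °C (SE 0.25, adjusted p = 2.06e-07). Against the spike-in, the labelled MF(ALPHA)1 signal at 48 h and 1 °C with low [GSH] was 0.00636 ± 0.00337 (SD, n = 3) of the summed S. pombe TPM, where the libraries of time 0, the background of the labelling, gave 4.75e-06 ± 7.98e-06.

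At 6 h and low [GSH] 6 of 10 members differed between 1 °C and 5 °C, beside 52.4% of 5802 genes. MF(ALPHA)2 was higher by 5.67 (SE 0.83, adjusted p = 1.1e-07), on 7.50, 8.66 and 7.72 RPM at 1 °C and 0.15, 0.15 and 0.08 at 5 °C. STE2 (-0.81), STE6 (-0.77), MFA2 (-1.47) and STE3 (-0.67) were lower at 1 °C, though on the spike-in scale, which moved the median up by 0.79, STE6 had 0.03 and STE3 0.16. The MFA2 call was lost without replicate 3 (adjusted p = 0.0527). STE2 had 213, 223 and 125 RPM at 1 °C and 269, 282 and 286 at 5 °C, without overlap. The alpha-cell markers outside the members, SAG1 (2.32, adjusted p = 5.52e-12) and AFB1 (1.46, adjusted p = 0.00381), were higher at 1 °C. MATALPHA1 had 0, 0 and 53 reads at 6 h and 1 °C with low [GSH] and 0 in all 3 libraries at 48 h, and its called fall between these times rests on the library with 53 reads.

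Labelling time separated the a-cell genes. A gene whose mRNA turns over fast reaches its final labelled amount early and then loses share to mRNA that still accumulates. A gene with long-lived mRNA keeps gaining share. STE6 lost share. At 30 °C it had 1017, 1052 and 946 RPM at 10 min and 594, 547 and 643 at 20 min, which were not tested against each other. At 5 °C with low [GSH] it had 503, 430 and 537 RPM at 1.5 h and 150, 162 and 155 at 48 h, a fall of 1.64 (SE 0.20, adjusted p = 7.24e-10), where the spike-in scale gave 0.51 (adjusted p = 0.201). It fell by 1.43 with high [GSH] at 5 °C (adjusted p = 2e-08), and from 6 h to 48 h at 1 °C by 0.83 with low [GSH] (adjusted p = 0.000572) and by 1.02 with high [GSH] (adjusted p = 3.03e-05). Without replicate 3 the STE6 fall at 1 °C with low [GSH] had an adjusted p of 0.0565. Early and late libraries of STE6 did not overlap in any of the 4 conditions.

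ASG7 and AGA2 gained share. At 5 °C with low [GSH] ASG7 went from 5.30, 2.80 and 1.58 RPM at 1.5 h to 17.8, 16.8 and 16.9 at 48 h, a rise of 2.44 (SE 0.31, adjusted p = 1.25e-09). AGA2 went from 4.06, 4.91 and 3.51 to 11.4, 9.75 and 19.0, a rise of 1.70 (SE 0.34, adjusted p = 2.62e-05). With high [GSH] at 5 °C ASG7 rose by 2.68 and AGA2 by 2.25. At 1 °C from 6 h to 48 h ASG7 rose by 1.17 and 1.57 and AGA2 by 1.72 and 1.19 with low and high [GSH]. Early and late libraries of each culture set did not overlap for either gene.

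The alpha-factor gene was not called over time. MF(ALPHA)1 had changes of 0.22 (adjusted p = 0.442) at 5 °C with low [GSH], 0.51 (adjusted p = 0.0647) with high [GSH], 0.17 (adjusted p = 0.562) at 1 °C with low [GSH] and -0.10 (adjusted p = 0.735) with high [GSH]. STE2 fell by 0.55 and 0.59 at 5 °C and by 0.40 at 1 °C with high [GSH], where the call was lost without any 1 replicate (adjusted p = 0.0545 to 0.17), and had -0.20 at 1 °C with low [GSH] (adjusted p = 0.315). The other calls rested on single libraries more. MFA2 rose by 1.04 at 1 °C with low [GSH] (adjusted p = 0.049, and 0.0669 to 0.192 without any 1 replicate) and by 1.12 at 5 °C with high [GSH] (adjusted p = 0.0269, lost without replicate 2 or 3 at 0.0792 and 0.149). STE3 rose by 0.59 at 1 °C with low [GSH] (adjusted p = 0.0104, and 0.0883 without replicate 3) and fell by 0.57 at 5 °C with high [GSH] (adjusted p = 0.0118, lost without replicate 1 or 3 at 0.0527 and 0.0698). MF(ALPHA)2 rose by 2.82 at 5 °C with low [GSH] (adjusted p = 0.0154, and 0.0712 to 0.0798 without any 1 replicate). In the time comparisons 5 of 10 members passed at 1 °C with low [GSH], beside 50.3% of genes, 4 with high [GSH], beside 52.9%, 5 at 5 °C with low [GSH], beside 62.8%, and 6 with high [GSH], beside 63.5%. Without replicate 3, 2 passed at 1 °C with low [GSH], beside 38.5% of genes, and 4 at 5 °C with high [GSH], beside 55.9%. With the culture as a block BAR1 was also called, at -0.44 (adjusted p = 0.0276) at 1 °C with high [GSH] and at -0.54 and -0.58 at 5 °C, MFA2 at 0.99 (adjusted p = 0.0253) at 1 °C with high [GSH], and MF(ALPHA)1 at 0.50 (adjusted p = 0.0133) at 5 °C with high [GSH]. The spike-in scale moved the median of all genes up by 1.42 to 2.55 here, and on it STE2 and STE6 had positive values in all 4 conditions, below that shift.

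**Figure D3:**
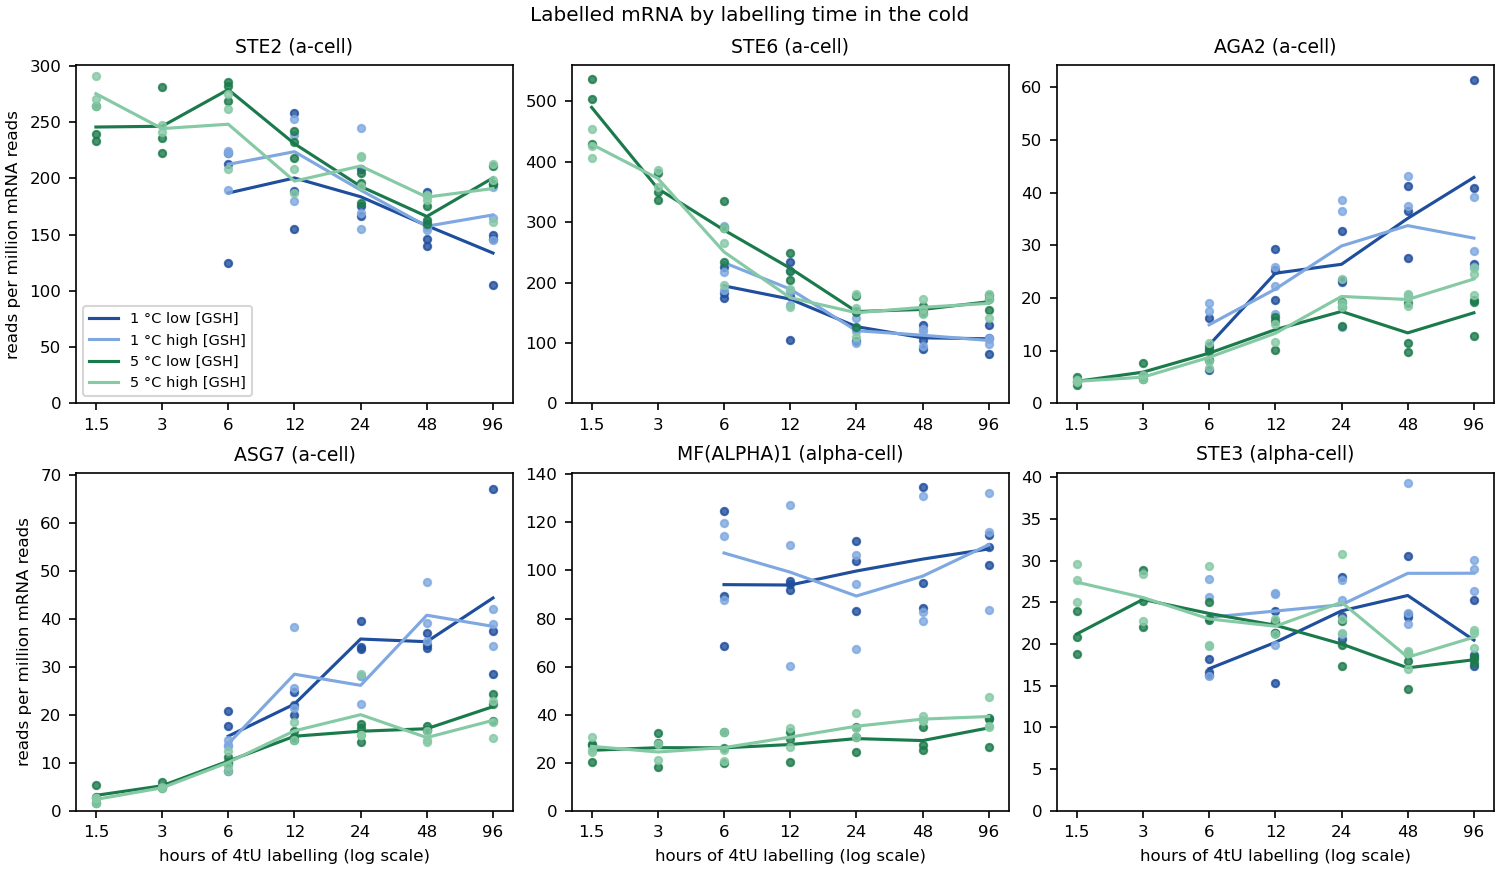
Labelled mRNA of 6 genes in RPM against hours of labelling (log axis), as a share of labelled mRNA reads. Points are libraries and lines the mean per condition. STE6 falls from 430 to 537 at 1.5 h to 150 to 162 at 48 h at 5 °C with low [GSH], ASG7 and AGA2 climb, and MF(ALPHA)1 lies higher at 1 °C than at 5 °C throughout; with the spike-in as library size the STE6 change has the other sign (0.51).

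Fitted half-lives set STE6 and STE2 apart from ASG7 and AGA2. Synthesis and decay were fitted per culture to the ratio of a gene's TPM to the summed TPM of the S. pombe spike-in, with low [GSH] and times up to 48 h. STE6 had half-lives of 4.398, 4.136 and 3.439 h at 1 °C, culture by culture, and 0.987, 0.289 and 1.19 h at 5 °C, where the median gene had 7.65, 9.90 and 8.65 h and 3.73, 2.11 and 8.09 h. Each STE6 value is shorter than the first labelled time after 0, 6 h at 1 °C and 1.5 h at 5 °C, so no such library sampled its first half-life. With residuals divided by the value, STE6 reached the lower limit of 0.15 h in culture 2 at 5 °C. STE6 lay below the median gene in 6 of 6 cultures, and was the shortest in each among the 7 members other than MFA1, MFA2 and MF(ALPHA)2. STE2 had 6.13, 6.85 and 6.93 h at 1 °C and 2.17, 1.18 and 5.45 h at 5 °C, also below the median gene in 6 of 6 cultures. ASG7 had 12.7, 27.8 and 14.9 h at 1 °C and 9.78, 13.1 and 14.5 h at 5 °C, and AGA2 had 12.98, 36.91 and 22.02 h and 7.97, 5.37 and 12.7 h, both above the median gene in 6 of 6 cultures. The values themselves depended on the fit. With the 96 h libraries the mean at 5 °C went from 12.5 to 48.4 h for ASG7, from 8.69 to 26.5 h for AGA2, from 0.824 to 3.57 h for STE6 and from 2.93 to 8.50 h for STE2, and with residuals divided by the value the mean of AGA2 at 1 °C went from 23.97 to 646 h and that of ASG7 from 18.45 to 337 h. The median gene moved too: at 5 °C with the 96 h libraries it had 4.73, 4.375 and 31.4 h. At 1 °C with residuals divided by the value it had 8.54, 11.9 and 10.3 h. The side of the median gene on which STE6, STE2, ASG7 and AGA2 lay was the same in 6 of 6 cultures under both settings. BAR1 had 6.52 to 9.43 h at 1 °C and 1.53 to 4.51 h at 5 °C.

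Among the alpha-cell genes, MF(ALPHA)1 had 7.19, 9.20 and 15.6 h at 1 °C and 7.74, 2.21 and 9.78 h at 5 °C, where its mean went from 6.58 to 25.6 h with the 96 h libraries. STE3 had 13.8, 12.8 and 14.1 h at 1 °C and 2.27, 1.55 and 6.50 h at 5 °C. The fits for MFA1, MFA2 and MF(ALPHA)2 spread too widely to rank: at 1 °C MF(ALPHA)2 had 2.79, 102.4 and 2.437 h and MFA2 had 7.192, 62.62 and 10.66 h, MFA1 reached the upper limit of 960 h in 1 culture at 1 °C and MF(ALPHA)2 in 1 culture at 5 °C. At 5 °C the libraries of MFA1 and of MF(ALPHA)2 averaged under 20 reads. The median over the 7 a-cell genes, MFA1 and MFA2 included, averaged 16 h over cultures at 1 °C and 3.42 h at 5 °C. Without culture 2 the value at 1 °C was 10.0 h, and with the 96 h libraries it was 7.68 h.

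**Figure D4:**
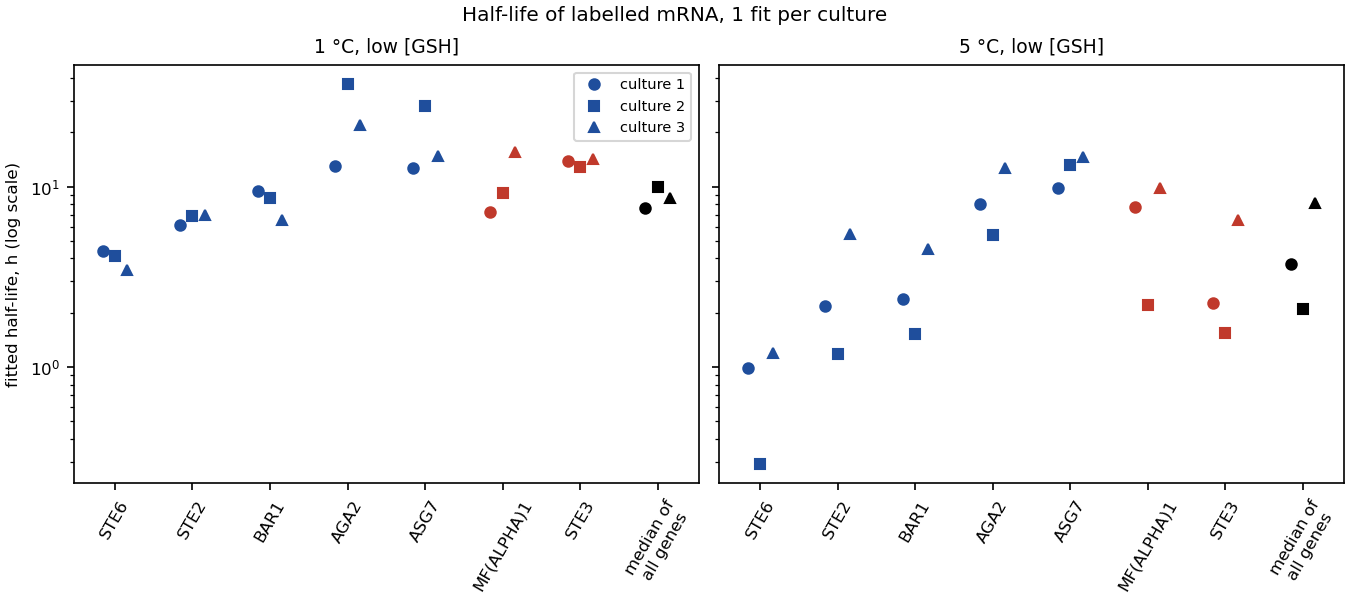
Fitted half-life (h, log axis) of 7 genes (MFA1, MFA2 and MF(ALPHA)2 are not drawn) and the median of all genes in the 3 low [GSH] cultures at 1 °C and 5 °C; symbols mark the culture. STE6 is lowest of those drawn, at 3.439 to 4.398 h and 0.289 to 1.19 h.

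The genes around the mating-type specific genes changed in both directions in the cold. Of 21 genes of pheromone signalling, the G protein and kinase pathway behind both receptors, 4 rose and 8 fell at 1 °C against 30 °C (median -0.16), and 3 rose and 14 fell at 5 °C (median -0.27), where 36.9% and 36.5% of all genes were higher and 36.4% and 37.9% lower. With summed mRNA reads 16 were higher and 4 lower at 1 °C and 6 and 8 at 5 °C, beside 3648 and 2779 of all 5697 genes higher. On the spike-in scale, where 93.6% and 59.7% of all genes were higher, 20 of the 21 were higher and 0 lower at 1 °C (median 2.11, below the shift of 2.26 for all genes), and 11 were higher and 1 lower at 5 °C (median 0.68, below the shift of 0.94). GPA1, the G protein alpha subunit, fell by 1.48 (adjusted p = 1.63e-09) and SST2, which ends its signal, by 1.35 (adjusted p = 5.75e-07) at 1 °C, while STE50 rose by 0.99 (adjusted p = 1.01e-07), and on the spike-in scale GPA1 was 0.79 and SST2 0.87 higher. At 5 °C STE4, the beta subunit, fell by 1.10 (adjusted p = 2.23e-08), the kinase KSS1 fell by 1.13 (adjusted p = 5.07e-08), and the kinase STE11 rose by 0.99 (adjusted p = 6.12e-09), with -0.15 for STE4 and -0.19 for KSS1, not called, on the spike-in scale.

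Of 15 genes of cell fusion and pheromone induction, 8 rose and 3 fell at 1 °C (median 0.77) and 8 rose and 2 fell at 5 °C (median 0.84), beside 36.9% and 36.5% of all genes higher. With summed mRNA reads 11 were higher and 1 lower at 1 °C and 8 and 1 at 5 °C, beside 64% and 48.8% of all genes higher. On the spike-in scale it was 14 and 0 at 1 °C and 9 and 0 at 5 °C. There 93.6% and 59.7% of all genes were higher, so these last counts are close to those of all genes. FUS2, needed for cell fusion, rose by 1.67 (adjusted p = 4.91e-08) at 1 °C and by 2.33 (adjusted p = 1.84e-09) at 5 °C, and FIG1 rose by 2.65 (adjusted p = 6.65e-06) at 1 °C. KAR3, a kinesin of nuclear fusion, fell by 1.22 (adjusted p = 1.58e-07) at 5 °C, and had -0.26, not called, on the spike-in scale. On the spike-in scale the median of the 15 was 3.06 at 1 °C and 1.73 at 5 °C, above the shift of all genes at both temperatures.

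Among 7 genes of silencing and mating-type control, 2 rose and 1 fell at 1 °C, and 4 rose and 1 fell at 5 °C, beside the same shares of all genes. With summed mRNA reads 6 were higher and 0 lower at 1 °C and 5 and 1 at 5 °C, beside 64% and 48.8% of all genes higher. On the spike-in scale it was 7 and 0, then 6 and 0, beside 93.6% and 59.7% of all genes higher. SIR3, a structural protein of silent chromatin, rose by 0.93 (adjusted p = 3.33e-08) and 0.90 (adjusted p = 4.62e-08). HMRA1, under which transcripts of MATa are counted, had a value of 0.00 at 1 °C (adjusted p = 0.991) and fell by 0.33 at 5 °C (adjusted p = 0.0181), where the spike-in scale gave 0.62 (adjusted p = 0.0602). All 7 genes that mature a-factor passed at 1 °C, 3 higher and 4 lower, and 3 were higher and 2 lower at 5 °C. Of all genes 73.4% and 74.5% passed there. With summed mRNA reads 3 were higher and 0 lower at 1 °C and 5 and 1 at 5 °C, beside 64% and 48.8% of all genes higher. On the spike-in scale all 7 were higher at 1 °C and 5 at 5 °C, beside 93.6% and 59.7% of all genes. AXL1, the protease of the last cut, was lower by 0.66 (adjusted p = 2.3e-06) at 1 °C, or 1.60 higher on the spike-in scale. Of the 3 that mature alpha-factor, 2 rose at 1 °C and 3 at 5 °C, beside 36.9% and 36.5% of all genes. KEX2 rose by 0.23 (adjusted p = 0.00411) and 0.18 (adjusted p = 0.0195).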

How the data were processed

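RNA of cold and warm cultures was extracted, depleted of ribosomal RNA and sequenced as stranded libraries. The authors assigned reads with Salmon (v1.5.1 in the study's methods; build R64 in the submitters' processing notes) to 13700 transcripts of both yeasts, and deposited estimated counts, which need not be whole, and TPM, a length-scaled share of reads. Estimated counts of 5876 nuclear protein-coding genes were rounded and tested with edgeR 4.0.16 (R 4.3.3; quasi-likelihood, TMM, filterByExpr, Benjamini-Hochberg, threshold 0.05): 15 steady-state libraries in 1 fit, the cold labelled libraries after time 0 in another, and sums per culture over 5 times in 1 more. The fit by time took libraries of a culture as independent. DESeq2 1.42.0, 2 other library sizes, no filter, a block and leaving out replicates were tried. The fits were tested on simulated data.

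All 10 members are named. Lists beside them are given by counts, with at most the 3 genes of smallest adjusted p, and the 5 genes nearest to STE2 by Pearson correlation of log2(TPM + 1). Members and lists were chosen with earlier results of these data known. Replicates are called biological in the labels, and of 107 pairs 0 were identical. Same-numbered steady-state libraries of low and high [GSH] deviated together (correlations 0.117 to 0.284 at 1 °C and 0.206 to 0.317 at 5 °C), and time points with one number were taken as 1 culture, which the labels do not state. Half-lives used TPM over S. pombe TPM minus time 0, bounded at 0.1 times the first and 20 times the last time. Sequences were read from the RefSeq R64 genome by the coordinates of its annotation.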

Additional observations from a re-analysis of the deposited data

How the results depend on the processing

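Of the log2 changes recomputed for members under another setting, 919 kept their side of the threshold, 52 lost the call and 35 gained one. Another 34 changed sign with a call under either setting. The 919 include changes of sign where neither setting gave a call. The 34 sign changes all came from another library size. With summed mRNA reads, MFA2 was at 0.60 and BAR1 at 0.0858 for 1 °C against 30 °C. With S. pombe reads, 1 °C against 30 °C gave 1.75 for MFA1, 2.29 for MFA2, 1.02 for STE2, 0.23 for STE6, 1.75 for BAR1 and 1.94 for AGA2, and 5 °C against 30 °C gave 0.0499 for STE2, 0.26 for BAR1 and 0.39 for AGA2. For 1 °C against 5 °C it gave MFA2 0.73, STE2 0.97 and STE6 0.63 with low [GSH], and MFA2 1.13, STE2 1.16, STE6 0.72 and STE3 0.61 with high [GSH]. For 48 h against 6 h at 1 °C it gave STE2 1.33 and STE6 0.65 with low [GSH], and STE2 1.00, STE6 0.39, BAR1 0.97 and MF(ALPHA)1 1.33 with high [GSH]. For 48 h against 1.5 h at 5 °C it gave STE2 1.58, STE6 0.51, BAR1 1.57 and STE3 1.84 with low [GSH], and STE2 1.98, STE6 1.15, BAR1 1.95 and STE3 1.96 with high [GSH]. At 6 h STE6 was at 0.0344 and STE3 at 0.16. By its construction this scale moves all genes together, and whether it or TMM is nearer to the level per cell was not tested.

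With S. pombe reads, 4 members were called at 5 °C against 30 °C (66.0% of all genes), 9 at 1 °C against 5 °C with low [GSH] (87.7%), 8 over time at 1 °C with high [GSH] (82.1%), 8 and 10 over time at 5 °C with low and high [GSH] (91.5% and 95.0%), and 3 at 6 h (48.8%). Over all genes it called 4975 and 4761 over time at 1 °C with low and high [GSH], 29 and 1 for added glutathione in steady-state RNA at 1 °C and 5 °C, and 19 and 2 in summed labelled RNA, where DESeq2 called 4 at 1 °C. Leaving out each replicate in turn gave 2 to 4 members for 1 °C against 5 °C with low [GSH] (42.7% to 54.7% of all genes) and 3 to 4 with high [GSH] (45.7% to 55.1%). It gave 2 to 5 members over time at 1 °C with low [GSH] (38.5% to 44.6% of all genes). For added glutathione in summed labelled RNA at 1 °C it gave 0 to 1 genes in all. The causes were not tested, beyond the fewer samples.

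The mean half-life over the 7 a-cell genes' medians was 334 h at 1 °C and 5.44 h at 5 °C with residuals divided by the value, since 4 of the 7 genes reached the limit of 960 h in culture 2 at 1 °C, and 7.68 h at 1 °C and 5.28 h at 5 °C with the 96 h libraries. Leaving out each culture gave 10.0 to 19.2 h at 1 °C. Of 14 half-lives of single members, 11 moved by more than the SD over cultures with the 96 h libraries and 7 with residuals divided by the value. With the replicate number as a block, 6, 9, 5 and 6 members were called in the 4 steady-state temperature comparisons (72.6%, 73.8%, 57.6% and 58.4% of all genes), 0 in each test of added glutathione, 5, 6, 6 and 8 in the 4 time comparisons (55.4%, 57.7%, 66.2% and 66.8%) and 6 at 6 h (53.1%). The BAR1 call at 1 °C against 30 °C was lost under the block (adjusted p = 0.0545), and outside the steady-state pairs of low and high [GSH] same-numbered libraries did not all deviate together (lowest correlations -0.27 to 0.09). Depth limits MFA1 and MF(ALPHA)2, and the 5 and 10 min libraries at 30 °C.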
